A study of Sus scrofa with 48 samples.

Results

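The genes described here drive DNA replication and cell division. They were taken from a list of 40 cell cycle and mitosis genes by matching each symbol to the Ensembl identifiers of the deposited count table. A match was found for 34 of the 40, among 22924 identifiers in all. Of the 34, 11 serve S phase, the stage of DNA copying, and 23 serve mitosis, the stage of chromosome separation. AURKA, CCNA2, GINS2, MKI67, PCNA and RRM2 were not matched and have no value. All 34 passed the filter on low counts in both tissues, so every matched gene has a test in each comparison.

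A dividing cell first licenses its replication origins with the MCM helicase and its loaders, then makes nucleotides and copies its DNA. Cyclin B with CDK1 then starts mitosis, in which kinesins and spindle proteins build the spindle, the kinetochore ties chromosomes to it, and the checkpoint kinases hold back separation until all are attached. Transcripts of the mitotic genes peak late in the cycle and are scarce in resting cells. In the gut, dividing cells lie in the crypts of the epithelium and in the germinal centres of lymphoid follicles, while most neurons of the hypothalamus no longer divide.

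The study sequenced polyA RNA of hypothalamus, a centre of appetite and hormone control in the brain, and of ileum, the end of the small intestine, from piglets after weaning. Piglets were sampled on day 7 or day 39 and classed as low or high growth by average daily gain from day 0 to that day, which gives 8 groups of 6 libraries. The groups were thus formed by growth itself and no agent was given. Sex, litter, age at weaning and whether the same piglet gave both tissues are not given in the labels, and only the separate sample names show that replicates are different animals, so the spread behind the p-values may be technical in part.

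Total estimated counts ranged from 14168558 to 21122613 in the hypothalamus libraries and from 14356559 to 23157160 in the ileum libraries. Counts of the 34 genes lay between 3 and 1491 in hypothalamus, with a median of 58, and 18 of 816 values were under 10. In ileum they lay between 106 and 15094, with a median of 1639.5. The ileum values are therefore far less limited by counting error. Levels are given as CPM, the count scaled by the TMM-adjusted library total, which is not divided by transcript length, so levels are compared between libraries and not between genes.

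Broad markers of brain and gut were present. SNAP25, a synaptic protein of neurons, and MBP, a myelin protein, were found in every hypothalamus library, although neither is particular to the hypothalamus. VIL1, a protein of the enterocyte brush border, was found in every ileum library. Some libraries stood apart, and results that rest on them are given with and without them. In ileum, day 7 high growth replicate 1 had very low B cell marker transcripts. Its mean over 12 B cell and germinal centre markers was 1.88 log2 CPM. Among them, MS4A1, which encodes the B cell antigen CD20, was at 0.645 CPM, and BCL6 was the highest at 32.4 CPM. Day 7 low growth replicate 3 had a B cell marker mean of 6.02, and the other 22 ileum libraries lay between 7.29 and 7.95. In hypothalamus the mean over 11 neuron markers varied between 2.49 and 7.20 log2 CPM. Day 39 low growth replicate 3 had the lowest mean over these and over 8 myelin markers (4.16), and also over microglia (3.94), astrocyte (5.96) and oligodendrocyte precursor markers (5.31). Its mean over 9 endothelial markers was instead the highest of the 24 libraries (5.93). Its MBP was at 171 CPM, where the median of the tissue was 29052 CPM. Its highest Spearman correlation of counts with another hypothalamus library was 0.923, against 0.964 or more in the rest. Its neuron markers were divided: GAD2, an enzyme of inhibitory neurons, was at 0.298 CPM. SNAP25 at 1116 CPM and STMN2, a neuronal microtubule protein, at 1089 CPM were instead the highest of the 24 libraries. Day 39 low growth replicate 1 had the highest mean over 8 pituitary markers (3.84), with CGA, the shared subunit of pituitary glycoprotein hormones, at 3590 CPM.

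Every one of the 34 genes was higher in ileum than in hypothalamus. All 34 passed edgeR's quasi-likelihood test at an adjusted p of 0.05, where 40.7% of the 16976 genes tested were called higher and 44.4% lower. The median log2 fold change was 4.70 over the 34 genes and -0.08 over all genes tested. In bulk tissue a larger number of dividing cells and more RNA per cell cannot be told apart, here and in all results below. The median was 4.94 over the mitosis genes and 4.10 over the S phase genes.

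Among the mitosis genes, BUB1, a kinase of the spindle checkpoint, had the largest difference. Its level ran from 0.173 CPM through a median of 1.05 to 3.09 CPM over the 24 hypothalamus libraries, and from 20.0 through 69.3 to 131 CPM over the 24 ileum libraries. The tissues did not overlap, and the log2 fold change was 5.98 ± 0.21 (SE, adjusted p = 1.58e-28). CCNB1, the cyclin that activates CDK1, followed at 5.95 ± 0.19 (adjusted p = 4.32e-30). TOP2A, the topoisomerase that untangles chromosomes, ran from 1.10 to 26.5 CPM in hypothalamus and from 179 to 1048 CPM in ileum, a difference of 5.38 ± 0.21 (adjusted p = 5.78e-27). NUSAP1, which bundles spindle microtubules, had the smallest difference of the mitosis genes at 2.57 ± 0.12 (adjusted p = 6.22e-24), with a hypothalamus median of 21.0 CPM against 129 CPM in ileum.

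The S phase genes spread more widely. TYMS, which makes thymidylate, differed by 5.74 ± 0.21 (adjusted p = 3.58e-28), and CDC6, which loads the helicase onto origins, by 5.41 ± 0.21 (adjusted p = 1.47e-26). CDC6 had a median of 1.13 CPM in hypothalamus and 46.1 CPM in ileum. NDC80, a kinetochore protein, had medians of 1.30 and 40.3 CPM. The 6 MCM subunits were unequal. MCM2, MCM3, MCM4 and MCM5 differed by between 4.10 and 4.68, whereas MCM6 and MCM7 differed by 2.92 ± 0.14 (adjusted p = 4.40e-23) and 2.99 ± 0.12 (adjusted p = 6.40e-26). RRM1, the large subunit of ribonucleotide reductase, had the smallest difference of all, 1.66 ± 0.09 (adjusted p = 9.01e-22), with a hypothalamus median of 53.5 CPM against 168 CPM in ileum. Its levels did not overlap between the tissues either, since the highest hypothalamus library was at 81.9 CPM and the lowest ileum library at 101 CPM.

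**Figure D1:**
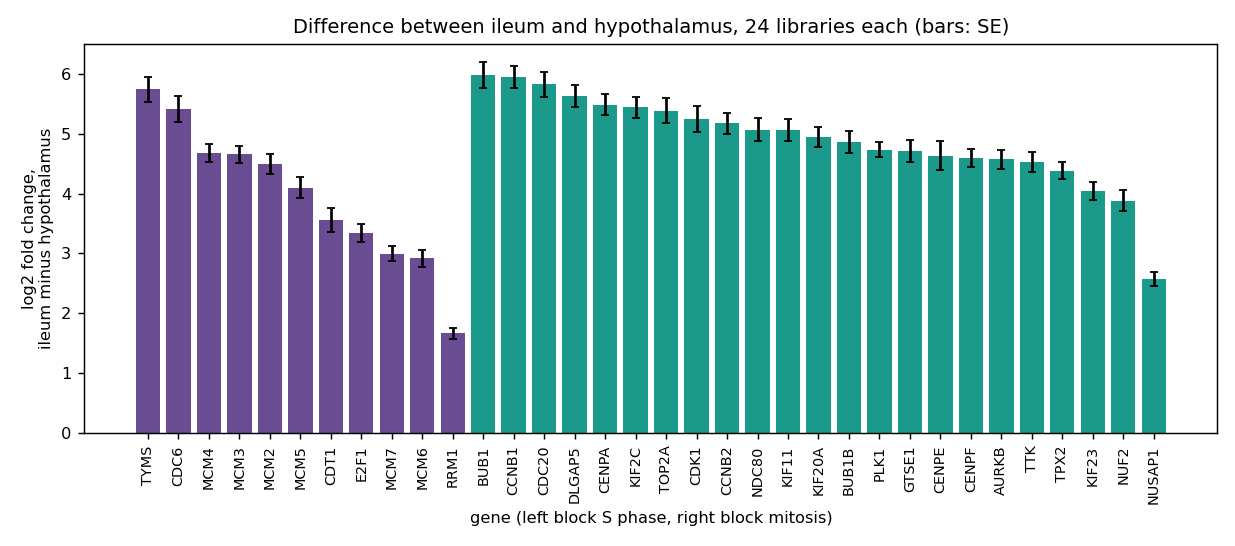
Log2 fold change of each gene, ileum minus hypothalamus, from the edgeR model over 24 libraries per tissue; bars start at 0 and the error bars are SE. Every bar is above 0, from 1.66 for RRM1 to 5.98 for BUB1, and MCM6, MCM7, RRM1 and NUSAP1 are all below 3.

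Other genes of the pathway were taken from lists that do not contain the 34. Of 147 tested, 127 were called higher in ileum and 12 lower, with a median of 2.52. All 10 condensin and cohesin genes were higher, among them ESPL1, the separase that cuts cohesin, at 5.33 ± 0.17 (edgeR adjusted p = 4.28e-30). In the spindle and cytokinesis list 23 of 25 were higher, such as CDCA8, a subunit of the chromosomal passenger complex, at 5.76 ± 0.17 (adjusted p = 2.72e-31). In that list 1 was lower, the cytokinesis protein ANLN, at -1.81 ± 0.33 (adjusted p = 3.56e-06). Regulators that also act in resting cells were mixed. Of 7 CDK inhibitors 4 were called higher and 3 lower, with CDKN1C, the inhibitor p57, at -3.54 ± 0.21 (adjusted p = 2.10e-20). Of 8 G1 cyclins and kinases 5 were higher and 2 lower, with CCND1, which is cyclin D1, at -0.69 ± 0.12 (adjusted p = 1.64e-06) and CDK6, a kinase it activates, at 2.64 ± 0.15 (adjusted p = 2.23e-20).

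In hypothalamus on day 7 the question is whether the genes differ between low and high growth piglets. None of the 34 passed edgeR's test at an adjusted p of 0.05, nor did any gene (0% of 15865). By unadjusted p under 0.05, 8 of the 34 differed, 7 lower and 1 higher in low growth, where 7.67% of all genes did. DESeq2 and limma voom likewise called 0 of the 34, with 10 and 11 at that unadjusted p. The log2 fold change, low minus high growth, was below 0 for 32 of the 34, with a median of -0.36 against 0.01 over all genes tested. The median was -0.57 over the 23 mitosis genes and -0.19 over the 11 S phase genes. The S phase median ranged from -0.29 without high growth replicate 4 to -0.11 without high growth replicate 2.

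The 4 genes of lowest p all work at the spindle. DLGAP5, a microtubule protein of the spindle (chromosome 1, 184500791 to 184550028 of Sscrofa11.1), lay at 0.6254, 1.38 and 1.98 CPM (lowest, median, highest) in low growth and at 1.51, 2.95 and 3.78 CPM in high growth. The groups overlapped in a narrow band, and the log2 fold change was -1.06 ± 0.29 (SE, edgeR adjusted p = 0.549). KIF11, the kinesin that pushes the spindle poles apart (chromosome 14, 104125839 to 104177381), lay at 0.512, 2.75 and 3.12 CPM in low growth and at 3.66, 4.79 and 6.07 CPM in high growth. These groups did not overlap, at -1.03 ± 0.33 (edgeR adjusted p = 0.549). TTK, the checkpoint kinase MPS1, lay at 0.739, 1.28 and 2.38 CPM against 1.45, 2.84 and 3.28 CPM, with overlap, at -0.85 ± 0.31 (edgeR adjusted p = 0.549).

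CENPE, a kinesin that carries chromosomes to the spindle equator, had the largest fold change of the 34 at -1.77 ± 0.57 (edgeR adjusted p = 0.549), and 1 library set much of it. High growth replicate 4 was at 20.3 CPM, whereas the other 5 high growth libraries lay between 1.98 and 4.21 CPM and the 6 low growth libraries between 0.512 and 2.32 CPM. Without that library the fold change was -0.81.

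A further pair of kinesins of cytokinesis, KIF20A and KIF23, also had groups that did not overlap. KIF20A lay at 0.227, 1.88 and 2.35 CPM in low growth and at 2.56, 3.34 and 4.09 CPM in high growth (-0.96 ± 0.36, edgeR adjusted p = 0.555). KIF23 lay at 1.82, 3.10 and 3.32 CPM against 3.55, 4.43 and 4.71 CPM (-0.57 ± 0.31, edgeR adjusted p = 0.682). With KIF11 they make 3 of 34 genes whose low growth libraries all lay below every high growth library, where 0.189% of all genes tested did. The 34 genes were chosen with earlier results of these data known. Neither this share nor the other shares set beside all genes are therefore independent support. All 5 kinesins were below 0.

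The mitotic cyclins and kinases mostly lay on the same side. CCNB2, a B-type cyclin, was at -0.99 ± 0.42 (edgeR adjusted p = 0.584), CDK1 at -0.67 ± 0.45 (adjusted p = 0.748) and CCNB1 at -0.34 ± 0.36 (adjusted p = 0.868). CDK1 ran from 0.341 through 1.798 to 2.65 CPM in low growth and from 1.16 through 2.83 to 4.32 CPM in high growth, so the groups overlapped in part, with 2 low growth libraries below every high growth library and 3 high growth libraries above every low growth library. BUB1B, the checkpoint protein BubR1, was at -0.84 ± 0.31 (edgeR adjusted p = 0.555). TOP2A ran from 1.08 through 10.1 to 13.9 CPM in low growth and from 10.8 through 13.9 to 20.5 CPM in high growth (-0.77 ± 0.39, edgeR adjusted p = 0.665).

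PLK1 was the exception among the mitosis genes. This kinase of mitotic entry lay at 4.61, 6.71 and 8.92 CPM in low growth and at 3.84, 4.91 and 6.46 CPM in high growth, a log2 fold change of 0.46 ± 0.21 (edgeR adjusted p = 0.611). CDT1, which loads the MCM helicase with CDC6, was the other gene above 0, at 0.20 ± 0.25 (adjusted p = 0.8997).

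The S phase genes had smaller fold changes. All 6 MCM subunits were below 0, between -0.30 and -0.02, with MCM2 at -0.27 ± 0.28 (edgeR adjusted p = 0.861) and MCM5 at -0.14 ± 0.24 (adjusted p = 0.928). E2F1, the transcription factor that switches on S phase genes, was at -0.07 ± 0.25 (adjusted p = 0.968). MCM2 ran from 6.20 through 7.53 to 10.4 CPM in low growth and from 5.84 through 9.09 to 14.1 CPM in high growth, so the high growth libraries held both the lowest and the highest value.

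**Figure D2:**
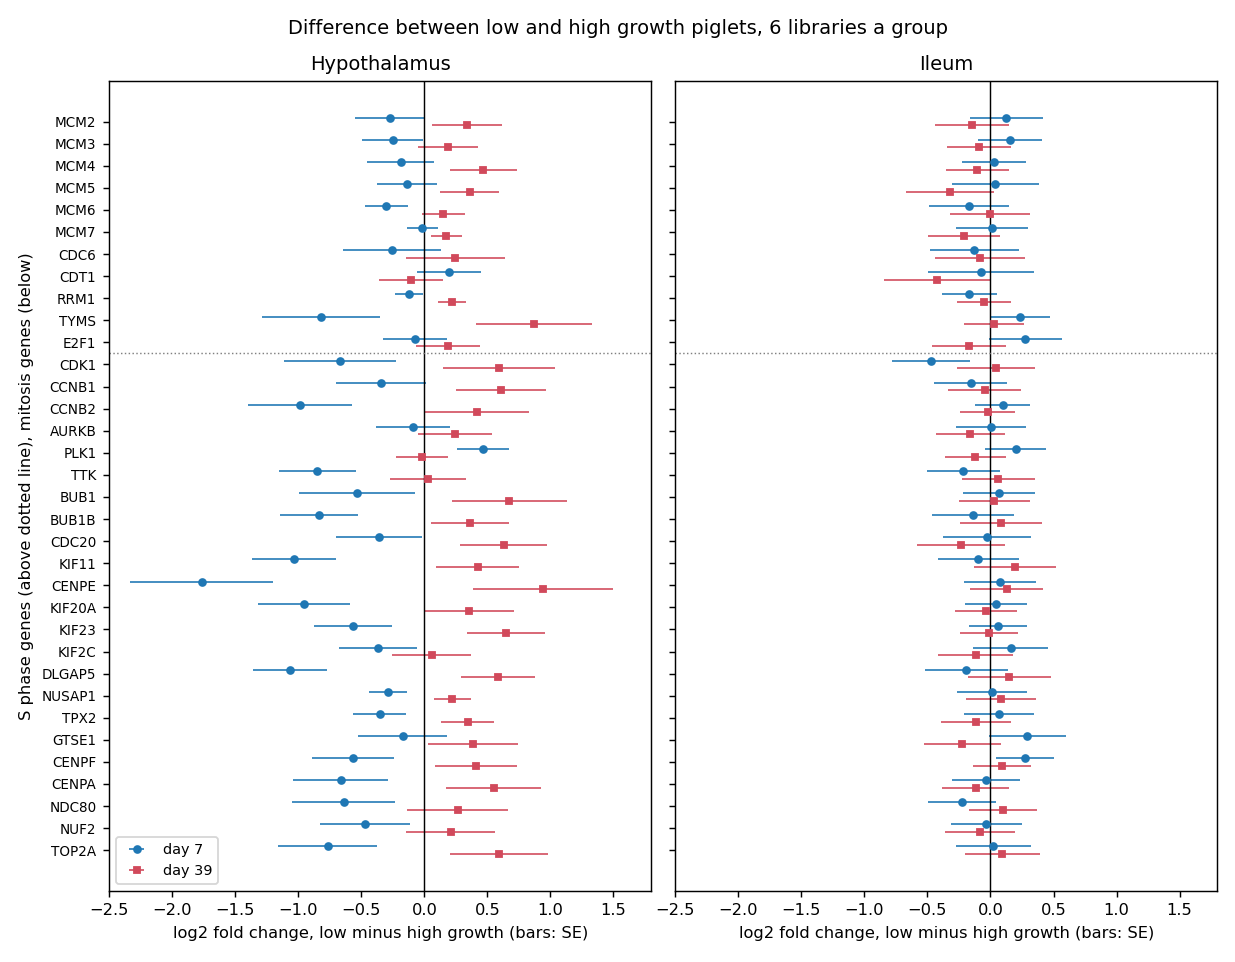
Log2 fold change of each gene, low minus high growth, on day 7 (circles) and day 39 (squares), in hypothalamus and ileum, 6 libraries a group, with SE bars. In hypothalamus 32 of 34 circles lie below 0 and 32 of 34 squares above 0; in ileum the values scatter around 0, and no value in either tissue passed the test.

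On day 7 the hypothalamus library of low growth replicate 3 lay below the rest. Its mean over the 34 genes was 0.92 log2 CPM, while the other 5 low growth libraries lay between 1.77 and 2.15. Its mean over the mitosis genes was 0.00 against 1.06 to 1.69, and over the S phase genes 2.83 against 3.12 to 3.27. TOP2A was at 1.08 CPM there and at 4.32 CPM or more in the other 11 libraries of the day. It was the lowest of the 24 hypothalamus libraries for 21 of the 34 genes, with a median ratio to the rest of its day of 0.255 over the mitosis genes and 0.748 over the S phase genes. Without it, 28 of 34 genes remained below 0, with a median of -0.32, and DLGAP5 was at -0.92 and KIF11 at -0.83.

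Markers of other cell types were divided on day 7, some lists lying mostly below 0 and others mostly above. Astrocyte markers were below 0 for 5 of 8 (median -0.24), with 2 at an unadjusted edgeR p under 0.05. Endothelial markers were below 0 for 6 of 9 (-0.05) and myelin markers for 5 of 8 (-0.09). Neuron markers were below 0 for 4 of 11, microglia markers for 2 of 9 and erythroid markers for 0 of 4. Of 13 markers of ependyma, the ciliated lining of the ventricles, 12 were below 0 in low growth on day 7, with a median of -0.86. Their mean ranged from 0.80 to 3.47 log2 CPM in the low growth libraries and from 0.49 to 4.32 in the high growth libraries, and none was called. On day 39, when the cell cycle genes lay on the other side, 12 of 13 ependymal markers were again below 0. Markers of oligodendrocyte precursors, 1 of the cell types that can divide in the brain, had 3 of 10 below 0 on day 7, and those of neural progenitors 3 of 7. Whether these cell types account for the result was not tested.

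On day 39 the fold changes in hypothalamus lay on the other side of 0. Of the 34 genes 32 were above 0, with a median of 0.36 against 0.02 over all genes tested. None was called by edgeR (0% of all genes), 1 of 34 had an unadjusted p under 0.05 where 5.45% of all genes did, and DESeq2 and limma voom called 0 of the 34, with 2 and 0 at that unadjusted p. The mitosis genes had a median of 0.41 and the S phase genes of 0.22.

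KIF23 had the lowest p. It lay at 2.61, 4.54 and 14.9 CPM in low growth and at 3.003, 3.50 and 5.39 CPM in high growth (0.65 ± 0.31, edgeR adjusted p = 0.908). DLGAP5 lay at 1.24, 2.23 and 3.51 CPM against 1.05, 1.40 and 2.41 CPM (0.58 ± 0.29, adjusted p = 0.922). RRM1 was at 0.22 ± 0.11 (edgeR adjusted p = 0.922) and TYMS at 0.87 ± 0.46 (adjusted p = 0.960). For all these genes the groups overlapped. For TYMS, 2 of the 6 low growth libraries were at 3.998 and 6.55 CPM, and the other 4 lay between 0.927 and 1.22 CPM, within the high growth range of 1.04 to 2.46 CPM apart from 2 just below it.

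Those 2 libraries are low growth replicates 1 and 3, the first highest in pituitary markers. The other was lowest in myelin and glial markers and highest in endothelial markers, with the divided neuron markers given above. Replicate 3 had the highest value of the day for 26 of the 34 genes, at a median of 2.04 times the median of the other 11 libraries, and replicate 1 stood at a median of 1.51 times. Without replicate 3 the median fold change was 0.12, with KIF23 at 0.12 and TYMS at 0.29. Without both, 18 of 34 genes were below 0, the median was -0.02, KIF23 was at -0.04 and TYMS at -0.38. Of 7 neural progenitor markers 5 were above 0 on day 39, with a median of 0.41, and of 8 myelin markers all 8 were below 0, with a median of -0.17. Microglia markers were below 0 for 9 of 9 (median -0.31), neuron markers for 10 of 11 (-0.18) and erythroid markers for 4 of 4 (-0.43), while 6 of 9 endothelial markers were above 0 (0.24). None was called, and their part in the result was not tested. MCM2 shows the same: 18.7 and 19.0 CPM in replicates 1 and 3, and between 6.47 and 7.44 CPM in the other 4.

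**Figure D3:**
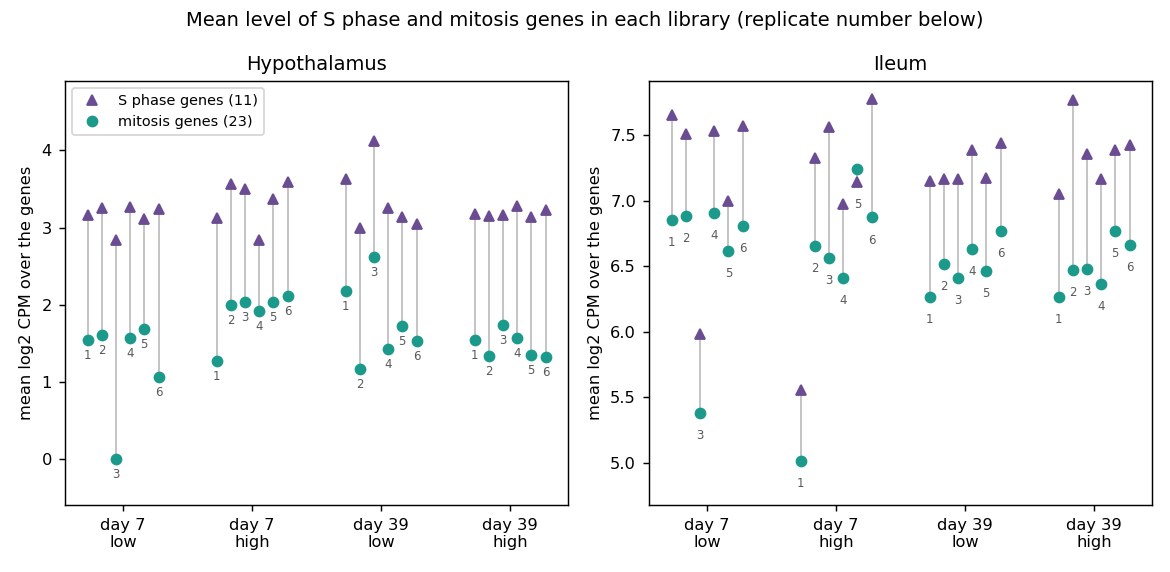
Mean log2 CPM over the 11 S phase genes (triangles) and the 23 mitosis genes (circles) in each library, with a line joining both and the replicate number below. In hypothalamus day 7 low growth replicate 3 is lowest and day 39 low growth replicate 3 highest; in ileum day 7 low growth replicate 3 and high growth replicate 1 lie below all others, and day 7 high growth replicate 5 has its circle above its triangle.

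The test of whether the growth difference changed between the days addresses this turn. Of the 34 genes 32 had a larger value on day 39 than on day 7, with a median change of 0.79 against 0.03 over all genes. None was called by edgeR (0% of 15865 genes), while 14 of 34 had an unadjusted p under 0.05, all upward, where 7.77% of all genes did. DESeq2 and limma voom called 0 of the 34, with 17 and 15 at that unadjusted p. DLGAP5 had the lowest p, at 1.65 ± 0.41 (edgeR adjusted p = 0.627), followed by CENPE at 2.71 ± 0.79, KIF11 at 1.46 ± 0.47 and KIF23 at 1.21 ± 0.44, all at an adjusted p of 0.627. Without day 39 low growth replicate 3 the count at an unadjusted p under 0.05 was 6 and the median 0.51, and without replicates 1 and 3 it was 3, with a median of 0.37. DLGAP5 was then at 1.41 and KIF11 at 1.07. The share of all genes at that unadjusted p was not counted without these libraries, so the 6 and the 3 cannot be set against it. KIF23 was at 0.69 without day 39 low growth replicate 3, and CENPE at 1.73 without day 7 high growth replicate 4.

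Averaged over growth, the fold changes between day 39 and day 7 in hypothalamus lay on both sides of 0. Of the 34, 21 were above 0, with a median of 0.05 against 0.01 over all genes. By edgeR none was called, where 0.0315% of genes were. MCM6 alone had an unadjusted p under 0.05, at 0.27 ± 0.12 (adjusted p = 0.494), against 9.62% of all genes, and DESeq2 and limma voom called 0, with 1 and 0 at that unadjusted p. CDT1 was at -0.35 ± 0.18 (edgeR adjusted p = 0.539), KIF23 at 0.42 ± 0.22 (adjusted p = 0.545) and PLK1 at -0.19 ± 0.15 (adjusted p = 0.645). Without day 39 low growth replicate 3, 21 of 34 genes were below 0, and without replicates 1 and 3, 30 were, with a median of -0.15.

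The spread over the 12 libraries of a day, as SD in percent of the mean, had a median over the 34 genes of 40.3% on day 7 and 37.3% on day 39 in hypothalamus. It was larger on day 7 for 17 of the 34. Over all genes tested the medians were 29.9% and 30.7%.

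In ileum on day 7 the fold changes between the growth groups lay on both sides of 0. Of the 34, 14 were below 0 and 20 above, with a median of 0.02 against -0.05 over all genes. None was called by edgeR (0% of 15256 genes), and none had an unadjusted p under 0.05, where 5.65% of all genes did. DESeq2 and limma voom also gave 0 by both counts. The 4 genes of lowest p were CDK1 at -0.47 ± 0.31 (edgeR adjusted p = 0.875), CENPF, a kinetochore protein, at 0.28 ± 0.23 (adjusted p = 0.922), TYMS at 0.24 ± 0.24 (adjusted p = 0.942) and GTSE1, a microtubule protein of G2 and mitosis, at 0.29 ± 0.30 (adjusted p = 0.948). CDK1 lay at 34.4, 96.4 and 106 CPM in low growth and at 38.3, 84.3 and 284 CPM in high growth. Its highest value is that of high growth replicate 5, without which the fold change was 0.04.

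The other genes named by rule had fold changes between -0.19 and 0.28. TOP2A lay at 231, 600 and 694 CPM in low growth and at 167, 488 and 1129 CPM in high growth (0.02 ± 0.30, edgeR adjusted p = 0.999). KIF11 was at -0.10 ± 0.32, DLGAP5 at -0.19 ± 0.33, CCNB1 at -0.16 ± 0.29 and PLK1 at 0.20 ± 0.24. MCM2 was at 0.13 ± 0.29, MCM5 at 0.04 ± 0.35 and E2F1 at 0.28 ± 0.29. Their adjusted p from edgeR lay between 0.950 and 0.996. The groups overlapped for each. The side of 0 depended on single libraries: without high growth replicate 1, 29 of 34 genes were below 0, with a median of -0.16, while without low growth replicate 3, 5 were below 0, with a median of 0.19, and without high growth replicate 5, 4 were, with a median of 0.19.

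A pair of ileum libraries lay far below the rest on day 7, 1 from each growth group. In high growth replicate 1 the mean over the 34 genes was 5.19 log2 CPM, and in low growth replicate 3 it was 5.58, while the other 22 ileum libraries lay between 6.52 and 7.21. Replicate 1 of high growth had the lowest value of the tissue for 30 of the 34 genes and replicate 3 of low growth for the remaining 4. The first stood at a median of 0.292 times the rest of its day and the second at 0.372 times. TOP2A, for example, was at 167 and 231 CPM there and between 403 and 1129 CPM in the other 10 libraries of day 7. S phase and mitosis genes were low alike, at 0.256 and 0.297 times in high growth replicate 1 and at 0.348 and 0.380 times in low growth replicate 3.

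These are the libraries with the lowest means over the B cell markers. PAX5, the factor that keeps B cell identity, was at 2.71 CPM in high growth replicate 1 and 204 CPM in low growth replicate 3, against 380 to 906 CPM in the other 10 libraries of the day. High growth replicate 1 also had the highest means of the 24 ileum libraries over 7 crypt stem cell markers (5.45 log2 CPM) and over 7 smooth muscle markers (9.93). The part of B cells in the levels of the cell cycle genes was not tested, in these libraries or in the others.

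**Figure D4:**
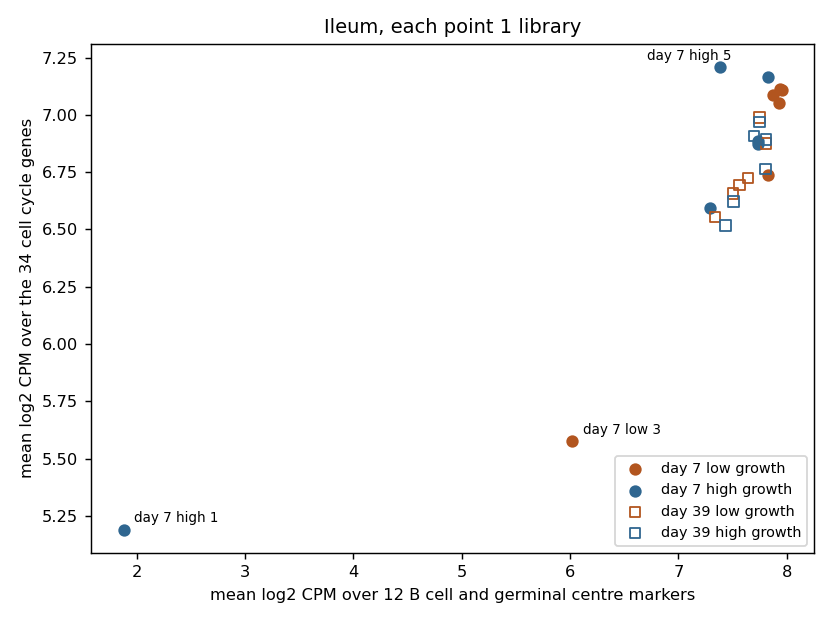
Mean log2 CPM over the 34 cell cycle genes (y axis) against the mean log2 CPM over 12 B cell and germinal centre markers (x axis) for the 24 ileum libraries, day 7 filled and day 39 open. Day 7 high growth replicate 1 and low growth replicate 3 lie apart at 1.88 and 6.02 on the x axis, with 5.19 and 5.58 on the y axis; the others lie between 7.29 and 7.95 and between 6.52 and 7.21.

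Another library, ileum day 7 high growth replicate 5, stood apart over all genes. Its highest Spearman correlation of counts with another ileum library was 0.935, against 0.966 or more in the rest. Its 13942 genes with at least 10 counts were the fewest in the tissue. Its total of estimated counts, 14356559, was also the lowest there, and a smaller total leaves fewer genes at 10 counts. The balance of the cell cycle genes also differed in this library, and the part of library quality in this was not tested. The mean over S phase genes minus that over mitosis genes was -0.10 on the log2 scale there and between 0.38 and 1.29 in the other 23 ileum libraries. It had the highest value of the tissue for 20 of the 34 genes, with a median ratio to the rest of its day of 1.81 over the mitosis genes and 0.739 over the S phase genes. The division did not follow the phases strictly. KIF11 at 340 CPM, CDK1 at 284 CPM and MCM6 at 925 CPM were the highest of the day. GTSE1 at 20.9 CPM, PLK1 at 79.3 CPM, CDT1 at 24.8 CPM and E2F1 at 31.05 CPM were instead close to the 2 libraries low in B cell markers. B cell markers were divided too: MS4A1 at 525 CPM was the highest of the day, while CD79A, a subunit of the B cell receptor, was at 126 CPM, against 178 to 611 CPM in the libraries other than high growth replicate 1.

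The reverse balance was seen in ileum day 39 high growth replicate 2, which had the largest S phase minus mitosis value at 1.29. CDT1 was at 249 CPM there and between 68.7 and 130 CPM in the other 11 libraries of day 39, and MCM5 at 490 CPM against 174 to 301 CPM. KIF11, at 73.1 CPM, was next to the lowest of the day.

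**Figure D5:**
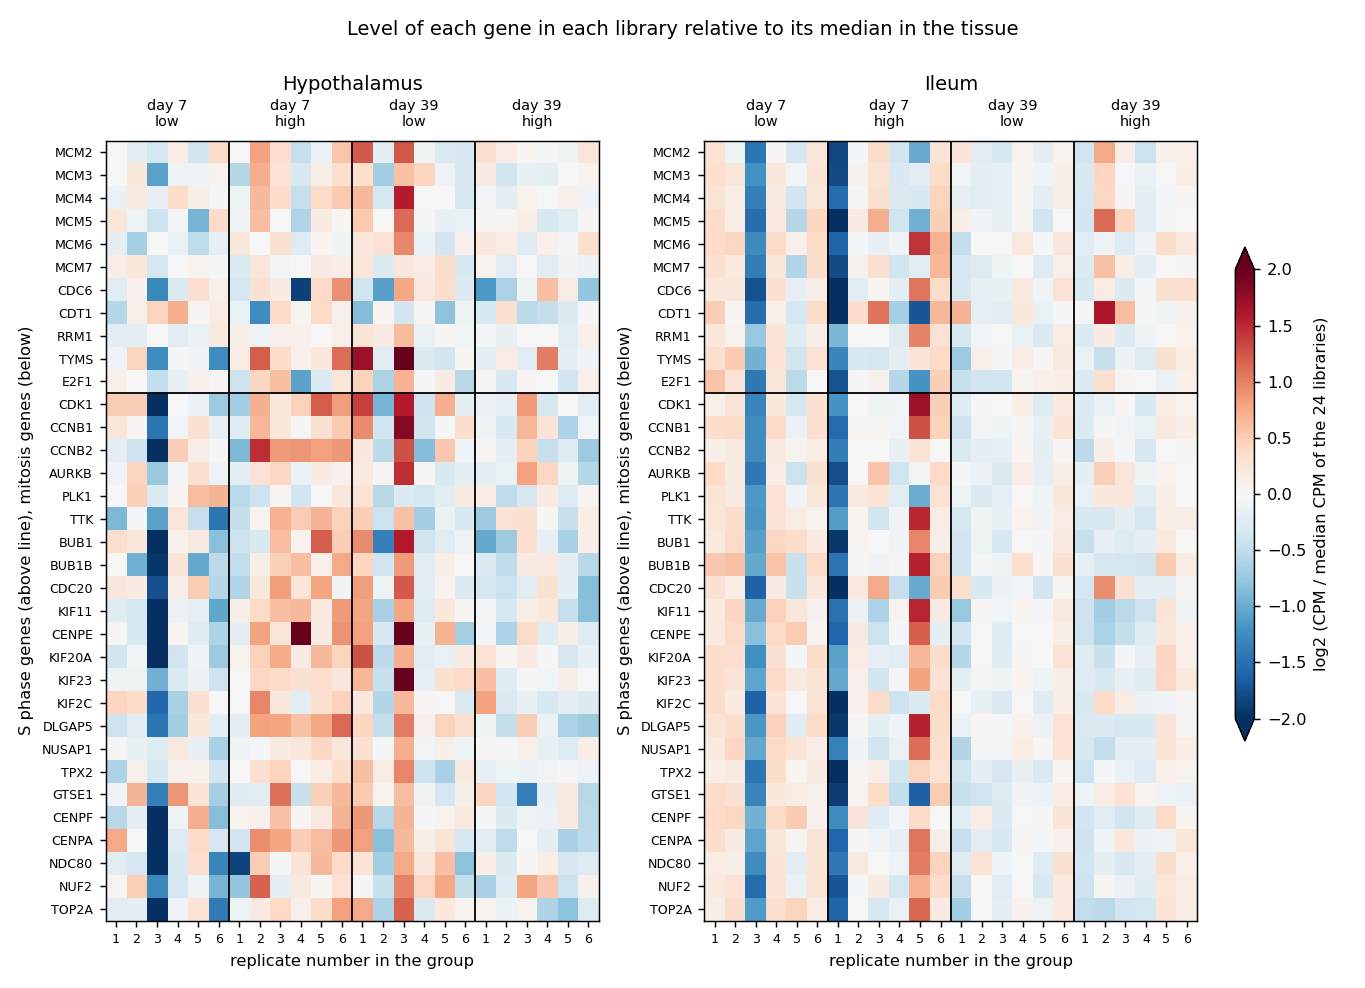
Each gene (rows, S phase above the line) in each library (columns, grouped by day and growth, numbered by replicate), as log2 of CPM over the gene's median in the 24 libraries of the tissue, with colours limited to 2 either way. The ileum columns of day 7 low growth 3 and high growth 1 are low for all rows, and day 7 high growth 5 is high for most mitosis rows and low for CDT1, E2F1, PLK1 and GTSE1.

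In ileum on day 39 most S phase genes lay slightly lower in low growth. Of the 11, 10 were below 0, with a median of -0.10, and of the 23 mitosis genes 12 were below 0, with a median of -0.01. Over the 34 the median was -0.05 against 0.00 over all genes. None was called by edgeR (0% of genes) and none had an unadjusted p under 0.05 (1.06% of genes). DESeq2 and limma voom gave 0 by both counts. CDT1 was at -0.42 ± 0.42 (edgeR adjusted p = 0.999) and MCM5 at -0.32 ± 0.35, MCM7 at -0.21 ± 0.29 and GTSE1 at -0.22 ± 0.30 at the same adjusted p. CDT1 lay at 68.7, 76.6 and 130 CPM in low growth and at 76.2, 82.5 and 249 CPM in high growth. Without high growth replicate 2, CDT1 was at -0.04, MCM5 at -0.06 and the S phase median at -0.04, and without high growth replicate 1 that median was -0.16.

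A change of the growth difference between the days was not detected in ileum. Of the 34 genes 21 had a lower value on day 39, with a median change of -0.08 against 0.05 over all genes. With edgeR none was called (0%), and none had an unadjusted p under 0.05 (3.01% of genes), nor by DESeq2 or limma voom. GTSE1 was at -0.52 ± 0.43, CDK1 at 0.51 ± 0.44, E2F1 at -0.45 ± 0.41 and PLK1 at -0.32 ± 0.34 (edgeR adjusted p = 0.987 for each). CDK1 was at 0.00 without day 7 high growth replicate 5. Without that library 32 of 34 genes were below 0, and without day 7 high growth replicate 1, 12 were.

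Averaged over growth, S phase and mitosis genes of the ileum lay on different sides of 0 between day 39 and day 7. Of the S phase genes 9 of 11 were above 0, with a median of 0.05, and of the mitosis genes 18 of 23 were below 0, with a median of -0.12. Over the 34 the median was -0.10 against -0.02 over all genes. By edgeR none was called, where 0.439% of genes were, and none had an unadjusted p under 0.05, where 8.85% of genes did. DESeq2 and limma voom gave 0 by both counts. KIF11 was at -0.34 ± 0.23 (edgeR adjusted p = 0.619), CENPE at -0.26 ± 0.20 (adjusted p = 0.635), TTK at -0.24 ± 0.20 (adjusted p = 0.638) and MCM2 at 0.24 ± 0.21 (adjusted p = 0.643). Without day 7 high growth replicate 5, KIF11 was at -0.09, CENPE at -0.07 and TTK at -0.01, and the median was 0.01 over the 34 genes and -0.01 over the mitosis genes. Without day 7 high growth replicate 1 the median was -0.18 over the 34 genes, -0.21 over the mitosis genes and -0.04 over the S phase genes.

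This comparison rests on the 3 unusual libraries of day 7. Without the pair low in B cell markers, 32 of 34 genes were below 0, with a median of -0.26, and 18 had an unadjusted p under 0.05. Without high growth replicate 5 as well, all 34 were below 0, with a median of -0.17, MCM2 was at -0.01, and 8 had an unadjusted p under 0.05. In neither case was any of the 34 called, although the number of all genes called rose from 67 to 198 and to 318. The share of all genes at that unadjusted p was not counted without these libraries. The 18 and the 8 can therefore not be set against all genes. T cell markers moved with the day: 4 of 8 were called higher on day 39 and 8 of 8 were above 0, while their part in the result was not tested.

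The spread between ileum libraries on day 7 was smaller without the 3 libraries that stood apart. The SD in percent of the mean over the 12 libraries of a day had a median of 40.8% on day 7 and 16.1% on day 39, and was larger on day 7 for 34 of 34 genes. Over all genes tested the medians were 36.5% and 22.2%, and 86.3% of genes were more variable on day 7. Over the 9 day 7 libraries without those 3, the median over the 34 genes was 17.4%, and 16 of 34 were more variable than on day 39. Over all genes the median was then 22.4%, with 51.9% more variable on day 7. The 3 libraries held many of the lowest and highest values of the 34 genes. Leaving them out was therefore bound to lower the day 7 spread of these genes, while day 39 kept all 12 libraries. KIF11 ran from 41.9 to 340 CPM on day 7, from 77.02 to 163 CPM there without the 3 libraries, and from 70.3 to 143.2 CPM on day 39. On day 39 the growth groups overlapped: CCNB1 lay at 91.8, 116.3 and 149 CPM in low growth and at 101, 119.4 and 138.9 CPM in high growth, PLK1 at 130, 147 and 181 CPM against 136.2, 166 and 182 CPM, and DLGAP5 at 83.8, 92.3 and 112.2 CPM against 73.8, 76.0 and 110 CPM. For DLGAP5 and KIF23 all 6 low growth libraries lay above the high growth median, an ordering that was not counted over all genes.

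Whether the day effect differed between the tissues was tested over all 48 libraries. None of the 34 was called by edgeR, where 0.0295% of genes were, and KIF23 alone had an unadjusted p under 0.05, at -0.56 ± 0.27 (adjusted p = 0.364), where 13.4% of genes did. DESeq2 and limma voom called 0, with 2 and 0 at that unadjusted p. MCM6 was at -0.51 ± 0.27 (edgeR adjusted p = 0.397), CDT1 at 0.63 ± 0.37 (adjusted p = 0.437) and CCNB1 at -0.45 ± 0.32 (adjusted p = 0.518). The median over the 34 was -0.17, against -0.05 over all genes.

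Among the other genes of the pathway, none was called within a tissue by edgeR in any comparison. In hypothalamus on day 7, 102 of 145 were below 0, with a median of -0.18, and the spindle and cytokinesis list had 21 of 24 below 0 with a median of -0.33. The lowest p belonged to E2F4, a repressor of cell cycle genes in resting cells, at 0.47 ± 0.10 (edgeR adjusted p = 0.549), to GINS1, a subunit of the replicative helicase, at -0.85 ± 0.28, and to MAD2L1, the checkpoint protein MAD2, at -0.53 ± 0.18, at the same adjusted p. On day 39, 99 of 145 were above 0, with a median of 0.09. In ileum, 83 of 147 were below 0 on day 7 with a median of -0.03, and 76 of 147 on day 39 with a median of 0.00.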

How the data were processed

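RNA-seq libraries of hypothalamus and ileum, 24 each in 4 groups of 6, were grouped by the labels. Trim Galore, kallisto, DESeq2 and the build Sscrofa11.1 are named per the submitters' processing notes, with no version or order. The deposited table holds the authors' estimated counts for each gene, not scaled for library size, of which 53% were not whole, and a normalized signal table, per the file headers, used only for an alternative test. Estimated counts can split reads between near-identical genes. Symbols came from a RefSeq table of the same build for 14894 of 22924 identifiers, with coordinates counted from 1.

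Estimated counts were rounded. Genes were kept by filterByExpr of edgeR 4.0.16 (R 4.3.3; minimum count 10, minimum total 15), which left 15865 in hypothalamus, 15256 in ileum and 16976 over both. Libraries were scaled by TMM, and the two-sided quasi-likelihood F test was adjusted by Benjamini-Hochberg over all genes tested, with a threshold of 0.05. A tissue's 24 libraries share 1 model, and tissues were compared in 1 model over 48, with no pairing of tissues. Mean log2 CPM used a prior count of 2. The genes, lists and tests were chosen with earlier results of these data known, so a pattern seen there is not independent support here. Genes named by rule were the 4 of lowest p in each comparison, 12 genes fixed by name and those of highest and lowest mean CPM. For each pathway list, up to 3 called genes were also named by rule. Genes outside this rule were chosen with their values known. Examples are KIF20A, CCNB2 and BUB1B in hypothalamus on day 7, and the pathway genes named there without being called. Genes named from single libraries were likewise chosen after their values were seen. DESeq2 1.42.0, limma 3.58.1, other scaling, no filter, only the compared groups and leaving out libraries were alternatives. The scripts were tested on simulated data. Promoter motifs were not analysed here.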

Additional observations from a re-analysis of the deposited data

Results flagged for a closer look

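Within each group of 6, a library was set apart where its gap to the nearest other library was large for the range of the group, and chance does this for about 1 in 20 groups. Of 104 groups of values examined, 18 held such a library, and 15 of the 18 come from 3 libraries. The groups of values overlap, since means over the genes and single genes among them were taken from the same libraries. The 18 of 104 can therefore not be set against 1 in 20. All values here are log2 CPM.

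In hypothalamus, day 7 low growth replicate 3 was set apart with a mean of 0.92 over the 34 genes, where the other 5 libraries lay between 1.77 and 2.15. Its mean was 2.83 over the S phase genes (others 3.12 to 3.27) and -0.0015 over the mitosis genes (others 1.06 to 1.69). CCNB1 was at -0.42 there (others 0.73 to 1.16) and KIF11 at -0.66 (others 0.82 to 1.69). Day 7 high growth replicate 1 had a mitosis mean of 1.28 (others 1.92 to 2.12). Day 39 high growth replicate 3 had CDK1 at 1.802 (others 0.70 to 0.996).

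In ileum, day 7 low growth replicate 3 had a mean of 5.58 over the 34 genes (others 6.74 to 7.11) and 5.38 over the mitosis genes (others 6.61 to 6.91). There TOP2A was at 7.85 (others 9.11 to 9.44), CCNB1 at 5.68 (others 6.82 to 7.32) and PLK1 at 6.15 (others 7.24 to 7.59). KIF11 was at 5.88 (others 6.97 to 7.35) and MCM2 at 6.398 (others 7.499 to 8.13). Day 7 high growth replicate 1 had means of 5.19 over the 34 genes (others 6.59 to 7.21), 5.55 over the S phase genes (others 6.97 to 7.77) and 5.01 over the mitosis genes (others 6.41 to 7.24). Day 39 low growth replicate 1 had KIF11 at 6.14 (others 6.83 to 7.06).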

How the results depend on the processing

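All 34 genes were called higher in ileum under the 4 alternatives run for that comparison, and none was called within a tissue under any alternative run. DESeq2 called more genes in all: in hypothalamus 7 on day 7, 18 on day 39, 1 for the change between days and 33 for the day; in ileum 8 on day 7, 2 for the change between days and 176 for the day; and 97 for the day effect between tissues. Leaving out 1 library gave 5 to 14 genes called for the day in hypothalamus, 0 to 1 on day 7 in ileum and 45 to 101 for the day in ileum. The libraries left out together were chosen after seeing the data. Without hypothalamus day 39 low growth replicates 1 and 3, the change between days had a median of 0.37 over the 34 genes and 0.12 over the S phase genes, and on day 39 KIF23 was at -0.035 and TYMS at -0.38. Without 2 or 3 ileum day 7 libraries, 198 or 318 genes were called for the day. CDK1 in ileum on day 7 ranged from -0.65 to 0.039 over libraries left out and was at 0.011 without all 3, where MCM2 for the day was at -0.0113. The cause of these changes was not tested. No paired analysis was possible because the labels state no replicate number or animal shared between groups or tissues. At hypothalamus depth, counts near 10 limit what can be seen for single mitosis genes.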
